A study of Homo sapiens with 9 samples.

Results

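The genes described here are 10 members of the Notch pathway, listed by name: the receptors NOTCH1, NOTCH2, NOTCH3 and NOTCH4, the ligands JAG1, JAG2 and DLL1, and the target genes HES1, HEY1 and NRARP. All 10 were found among the 26636 genes listed in all 9 libraries. Levels are in FPKM (fragments per kilobase of exon, scaled to the reads of the library), so that levels of different genes can be compared per length. Of the 10 genes, 8 averaged 1 FPKM or more and belonged to the 13014 genes tested, while NOTCH4 and DLL1 averaged less.

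Notch receptors span the cell membrane and bind ligands of the Jagged and Delta-like families on neighbouring cells. Binding exposes the receptor to an ADAM protease and then to gamma-secretase, which release the intracellular domain. In the nucleus this domain joins the DNA-binding protein RBPJ and a Mastermind coactivator and turns on target genes, among them repressors of the HES and HEY families and the feedback inhibitor NRARP. In breast tissue the pathway takes part in cell fate choices of the mammary epithelium, and it has been studied widely in triple-negative breast cancer.

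RNA was sequenced in bulk from cells labelled BT549, an established line from a human breast tumor without hormone receptors or HER2, known for mesenchymal-like features. The cells had received siWFDC21P-1 or siWFDC21P-2, a pair of siRNAs that target transcripts of the pseudogene WFDC21P, or the control siRNA siNC. Each of these 3 groups had 3 libraries, and every transfection used 5 µl of siRNA at 10 µM with harvest at 48 h. The labels do not say whether the 3 libraries of a group came from separate cultures, so p-values measure the spread between these libraries, which may be technical.

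The libraries fell into 3 expression sets that cut across the siRNA groups, found by clustering on 12943 genes without the Notch genes. In set 1, siWFDC21P-1 replicates 1 and 2 stood with siNC replicate 1. In set 2, siWFDC21P-1 replicate 3 stood with the library labelled siNC replicate 2. In set 3, all siWFDC21P-2 libraries stood with siNC replicate 3. Pearson's r of log2(FPKM + 1) between libraries ranged from 0.928 to 0.986 inside a set and from 0.659 to 0.746 across sets. Depth was 28.1 to 29.7 M reads in sets 1 and 2 and 16.3 to 17.4 M in set 3, where the gene tables also had another naming style. All libraries carry the label BT549, but a list of 6 mesenchymal markers summed to 618 to 688 FPKM in set 3, to 42.3 to 44.2 in set 1 and to 6.65 to 12.2 in set 2. Its members CDH2, THY1 and COL1A2 were at or below 0.0272 FPKM in sets 1 and 2. Its member FN1 did not follow this order, at 1.45 to 3.71 FPKM in set 1, 5.91 to 11.2 in set 2 and 4.56 to 9.13 in set 3. The 6 epithelial markers summed to 1020 to 1630 FPKM in set 2, to 174 to 384 in set 1 and to 7.0 to 10.2 in set 3. In set 1 nearly all of this sum came from KRT8 (93.4 to 232 FPKM) and KRT18 (80.4 to 151 FPKM). EPCAM, CDH1, KRT19 and CLDN4 were each at or below 1.16 FPKM there. The 3 basal markers summed to 20.9 to 37.9 FPKM in set 2 and to at most 0.566 elsewhere. Luminal markers listed in all libraries were ESR1, GATA3 and FOXA1. They summed to 17.8 to 25.0 FPKM in set 2, 8.21 to 30.0 in set 3 and 4.8 to 7.88 in set 1. Of these, GATA3 was at 11.5 to 19.3 FPKM in set 2, 7.98 to 30.0 in set 3 and at most 0.159 in set 1. The monocyte marker CD14 had 29.6 to 36.1 FPKM in set 2, 1.11 to 8.7 in set 3 and at most 0.526 in set 1. The general leukocyte marker PTPRC was listed at 0 in set 2 and at or below 0.16 FPKM in the other sets. The part of these differences in the levels of the Notch genes was not tested. The target WFDC21P was at 3.08 and 6.87 FPKM in siNC replicates 1 and 3, but at 0.129 in the library labelled siNC replicate 2. Why WFDC21P was that low in this library was not tested. With siWFDC21P-1 it was at 0.0629 and 0.767 in replicates 1 and 2, below the control of set 1, and at 0.227 in replicate 3, above the library labelled siNC replicate 2. With siWFDC21P-2 its level was 2.12 to 4.13, below the control in all 3. Libraries are called knockdown libraries by their labels, siWFDC21P-1 replicate 3 included. Every change below is therefore taken against the siNC library of the same set. Levels between sets are given as a description, and fewer cells of a type and less RNA per cell cannot be told apart in bulk libraries.

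The receptors were used very differently in the 3 sets. NOTCH3 (ENSG00000074181; hg38, chr19:15159038-15200981, minus strand) was the most abundant receptor in sets 2 and 3 and nearly absent in set 1. The SD of its log2(FPKM + 1) over the 9 libraries was 2.62, against 0.78 to 1.58 for the other 7 tested genes. Its level in set 1 was 0.0364 FPKM in siNC replicate 1 (10 reads; 95% counting interval 0.0175 to 0.0669), beside 0.0184 and 0.0466 in siWFDC21P-1 replicates 1 and 2 (5 and 13 reads). Set 2 had 158 FPKM in the library labelled siNC replicate 2 against 122 in siWFDC21P-1 replicate 3, from 41958 and 32148 reads. Set 3 had 9.57 FPKM in siNC replicate 3 against 10.7, 15.5 and 13.0 in siWFDC21P-2 replicates 1, 2 and 3. The 3 ranges were far apart, with every library of set 2 above every library of set 3, and every library of set 3 above those of set 1. The counting intervals given here and below cover counting error only.

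NOTCH2 (ENSG00000134250; chr1:119911553-120069626, minus strand), a broadly expressed receptor, was the main receptor of set 1. Its level was 25.0, 34.7 and 29.6 FPKM in siNC replicate 1 and siWFDC21P-1 replicates 1 and 2. In set 2 it was at 19.5 and 29.3 FPKM, and in set 3 at 6.14, 4.78, 4.82 and 5.12 FPKM. Sets 1 and 2 overlapped, and both lay above all libraries of set 3. NOTCH2 has near-identical partial copies, and its values are uncertain to the extent that reads were split with them. The copy NOTCH2NLA was listed at 0.148 to 0.357 FPKM in the 9 libraries.

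NOTCH1 (ENSG00000148400; chr9:136494433-136545786, minus strand), the receptor most studied in epithelial differentiation and leukemia, also separated the sets, in another order. It was at 17.5 and 18.5 FPKM in set 2, at 6.96, 7.79 and 5.88 in set 1, and at 2.88, 2.48, 0.786 and 1.18 in set 3. None of these 3 ranges overlapped. An annotated antisense gene, AL592301.1, overlaps NOTCH1, and since the strand setting of the counting is not stated, reads of both cannot be told apart. NOTCH4 (ENSG00000204301; chr6:32194843-32224067, minus strand), a receptor best known from endothelium, was close to the detection limit everywhere. It lay between 0.0138 FPKM (4 reads, siWFDC21P-1 replicate 2) and 0.146 FPKM (40 reads, siWFDC21P-1 replicate 3). The endothelial markers PECAM1, CDH5 and VWF summed to at most 1.68 FPKM in any library.

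**Figure D1:**
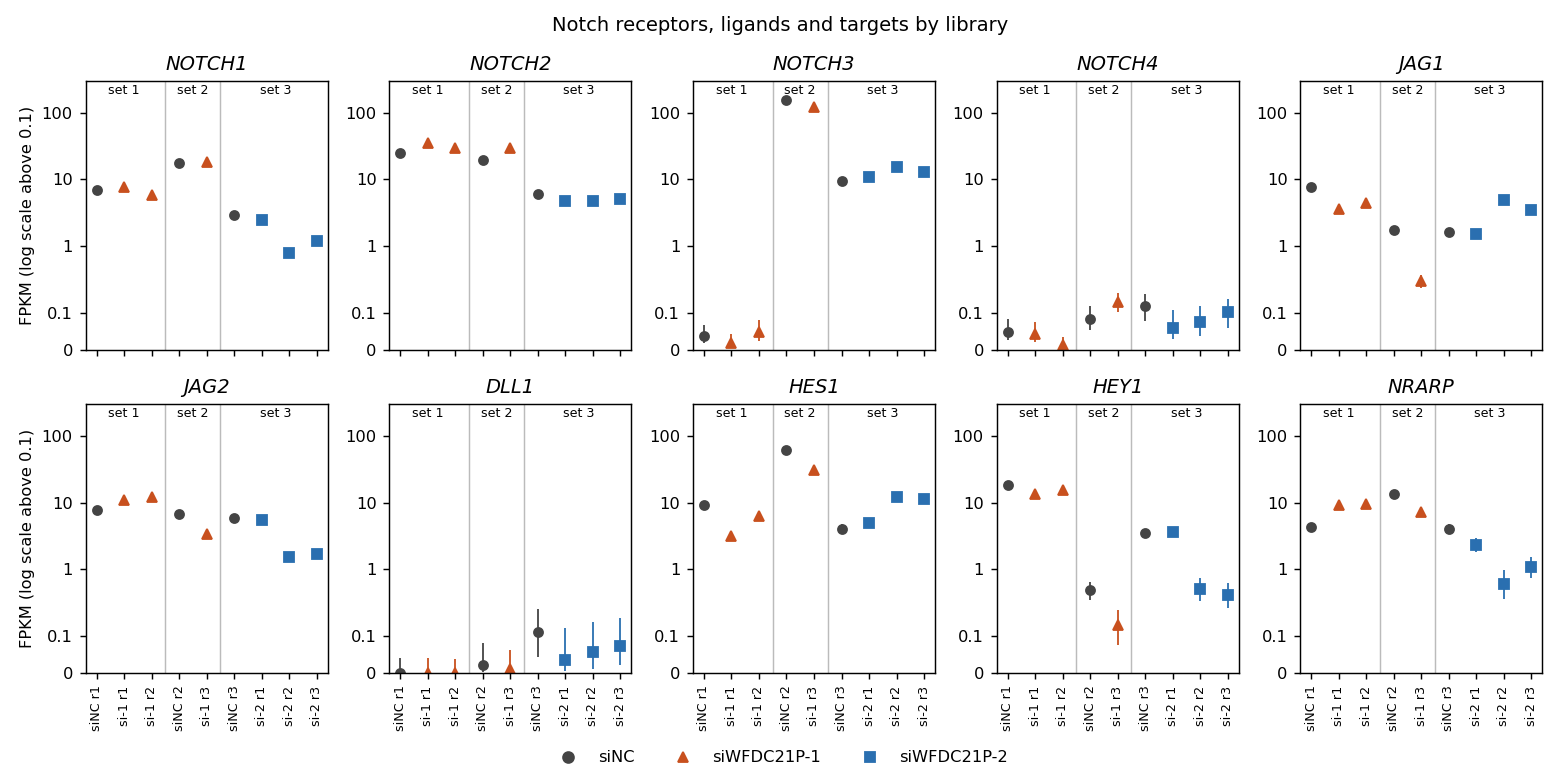
FPKM of the 10 Notch genes in each of the 9 libraries, 1 panel per gene, on an axis that is logarithmic above 0.1 FPKM and linear below, with 95% Poisson counting intervals (si-1 and si-2 stand for siWFDC21P-1 and siWFDC21P-2, r for replicate). NOTCH3 lies between 122 and 158 FPKM in set 2, between 9.57 and 15.5 in set 3 and below 0.05 in set 1, whereas DLL1 and NOTCH4 stay near 0 throughout.

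As a share of the summed FPKM of the 4 receptors, NOTCH2 made up 78.0, 81.5 and 83.3% in the libraries of set 1, and NOTCH1 made up most of the remainder. NOTCH3 reached at most 0.131% there. In set 2, NOTCH3 made up 81.0% in the library labelled siNC replicate 2 and 71.7% in siWFDC21P-1 replicate 3. In set 3, siNC replicate 3 had 51.1% NOTCH3, 32.8% NOTCH2 and 15.4% NOTCH1, the smallest leading share of the 9 libraries. The NOTCH3 share in the siWFDC21P-2 libraries was 59.3, 73.2 and 67.0%, above that control in all 3. The receptor sum itself stayed within 18.0 to 21.2 FPKM in set 3. It was 32.0 to 42.6 FPKM in set 1 and 170 to 195 FPKM in set 2.

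Among the ligands, JAG1 and JAG2 were present in every library and DLL1 was at the detection limit. JAG1 (ENSG00000101384; chr20:10637684-10673999, minus strand), the most widely expressed Jagged ligand in solid tumors, was at 7.80, 3.54 and 4.49 FPKM in siNC replicate 1 and siWFDC21P-1 replicates 1 and 2. In set 2 it was at 1.76 and 0.296 FPKM, and in set 3 at 1.62, 1.53, 4.85 and 3.47 FPKM. Set 1 lay above set 2, and set 3 overlapped both. It overlaps the antisense gene AL050403.2, with the same limit as for NOTCH1. JAG2 (ENSG00000184916; chr14:105140981-105168824, minus strand), the other Jagged ligand, was at 7.77, 10.9 and 11.9 FPKM in set 1, at 6.64 and 3.38 in set 2, and at 5.93, 5.45, 1.51 and 1.68 in set 3. All libraries of set 1 lay above those of sets 2 and 3, and the latter 2 sets overlapped.

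DLL1 (ENSG00000198719; chr6:170282206-170306565, minus strand), a Delta-like ligand, had 0 reads in all 3 libraries of set 1. A count of 0 allows up to 3 reads, or 0.0313 to 0.0322 FPKM in these libraries. It had 2 and 1 reads in set 2 and 6, 2, 3 and 4 reads in set 3 (0.0356 to 0.114 FPKM). No difference between control and knockdown was detectable for DLL1 at this depth. DLL1 overlaps FAM120B on the opposite strand.

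The share of JAG1 among JAG1, JAG2 and DLL1 lay below that of the control in both knockdown libraries of set 1. It lay far above it in 2 of the 3 in set 3. JAG1 made up 50.1% of the summed FPKM of JAG1, JAG2 and DLL1 in siNC replicate 1, and 24.5 and 27.4% in siWFDC21P-1 replicates 1 and 2. In set 3 it made up 21.1% in siNC replicate 3 and 21.8% in siWFDC21P-2 replicate 1, but 75.5 and 66.4% in replicates 2 and 3. Set 2 had 20.9% in the library labelled siNC replicate 2 and 8.04% in siWFDC21P-1 replicate 3. The summed ligand FPKM was 14.5 to 16.4 in set 1, 5.23 to 7.66 in set 3 and 3.68 to 8.42 in set 2. These shares are values of single libraries and were not tested as such.

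**Figure D2:**
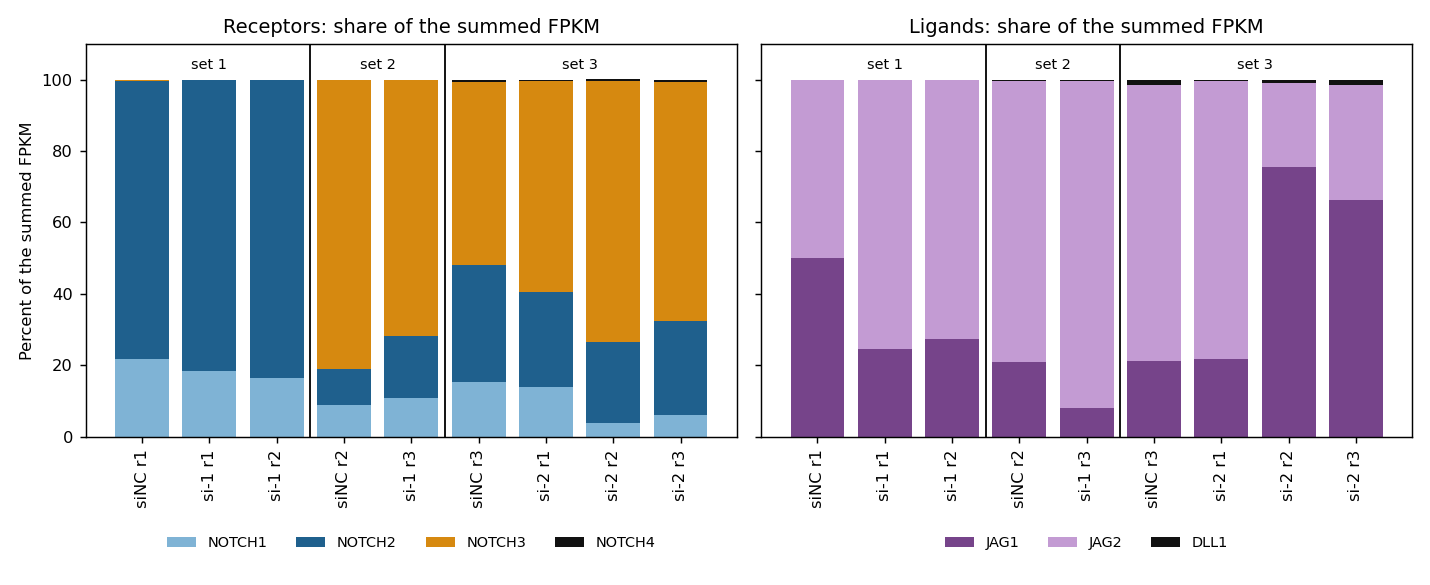
Stacked bars give each gene's percent of the summed FPKM of the 4 receptors (left) and of the 3 ligands (right) in each library. Set 1 consists almost wholly of NOTCH2 and NOTCH1, sets 2 and 3 are led by NOTCH3, and JAG1 exceeds 60% of the ligand sum in siWFDC21P-2 replicates 2 and 3.

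The target genes ordered the sets differently from each other. HEY1 (ENSG00000164683; chr8:79764010-79767863, minus strand), a basic helix-loop-helix repressor, was highest in set 1, where NOTCH3 was nearly absent. Its levels there were 18.2, 13.5 and 15.6 FPKM, against 0.481 and 0.143 in set 2 and 3.44, 3.66, 0.499 and 0.414 in set 3. Sets 2 and 3 overlapped for HEY1. NRARP (ENSG00000198435; chr9:137300482-137302251, minus strand), an ankyrin repeat protein that limits Notch signalling by acting on the intracellular domain, had 13.4 and 7.14 FPKM in set 2 and 4.23, 9.10 and 9.62 FPKM in set 1. Set 3 had 4.02, 2.31, 0.608 and 1.08 FPKM of NRARP, all below the libraries of the other 2 sets.

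HES1 (ENSG00000114315; chr3:194136145-194138732, plus strand), a repressor related to HEY1 that many signals besides Notch can induce, was highest in set 2. Its level there was 61.4 FPKM in the library labelled siNC replicate 2 against 30.6 in siWFDC21P-1 replicate 3. Set 1 had 9.09, 3.17 and 6.24 FPKM of HES1, and set 3 had 4.02, 4.99, 11.9 and 11.3 FPKM. Sets 1 and 3 overlapped for HES1, and every library of set 2 lay above both.

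RBPJ binds DNA at sites with the core TGGGAA, and its presence was examined in the 250 bases upstream of the RefSeq transcription start (GRCh38.p14). The core was searched on both strands, as was the longer GTGGGAA, whose every match contains the core. Of the 10 genes, 8 matched a RefSeq promoter entry (DLL1 and HEY1 did not), and HES1 alone among the 8 held the core, with 2 matches starting 84 and 70 bases upstream. The core was found in 20.8% of all 35116 promoters of this length and GTGGGAA in 5.43%. Among the other HES genes described below, HES4 held 1 match starting 76 bases upstream, and HES6 and HES7 held none. The HES1 and HES4 promoters are shown because both carry the core, which is in capitals, while their levels lay on opposite sides of the control in the siWFDC21P-2 libraries (HES1: chr3:194135898-194136147, plus strand; HES4: chr1:1000098-1000347, minus strand).
HES1: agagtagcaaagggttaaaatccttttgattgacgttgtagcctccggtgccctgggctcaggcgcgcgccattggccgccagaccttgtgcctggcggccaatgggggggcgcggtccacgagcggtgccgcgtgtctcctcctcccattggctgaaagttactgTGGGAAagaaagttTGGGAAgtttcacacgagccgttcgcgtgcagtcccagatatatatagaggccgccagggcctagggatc
HES4: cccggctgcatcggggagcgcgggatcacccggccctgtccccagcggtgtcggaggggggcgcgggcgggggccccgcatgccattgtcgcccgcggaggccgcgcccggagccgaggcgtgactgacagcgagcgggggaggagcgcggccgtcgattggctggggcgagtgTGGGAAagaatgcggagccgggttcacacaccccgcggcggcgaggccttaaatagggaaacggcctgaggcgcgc

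The first comparison asked whether the Notch genes differ between siWFDC21P-1 and the siNC library of the same set. None of the 8 tested genes passed (limma on log2(FPKM + 1) with the set as a term, Benjamini-Hochberg adjusted p of at most 0.05 over 13014 genes), where 0.0231% of all tested genes were called. NOTCH2, JAG1 and HES1 had an unadjusted p under 0.05, as had 13.8% of all tested genes, and limma-voom on recovered reads also called 0 of 8. The median log2 fold change was -0.11 over the 8 genes and 0.03 over all tested genes. A p above the threshold does not show that a level was the same.

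In the siWFDC21P-1 libraries NOTCH2 lay above its control in all 3, at 1.39 (95% counting interval 1.36 to 1.42), 1.19 (1.16 to 1.21) and 1.5 (1.46 to 1.54) times the control level. It was the only gene of the 8 to do so, a pattern met by 27.9% of all tested genes. Its log2 fold change was 0.44 ± 0.16 (SE; limma adjusted p = 0.286), and 0.35 ± 0.21 without set 2. JAG1, HES1 and HEY1 lay below the control in all 3 libraries, a pattern met by 20.7% of all tested genes. JAG1 was at 0.453 (0.418 to 0.491), 0.576 (0.535 to 0.62) and 0.168 (0.129 to 0.217) times the control level. HES1 was at 0.349 (0.294 to 0.412), 0.687 (0.601 to 0.784) and 0.498 (0.47 to 0.527) times. For HEY1 the values were 0.743 (0.69 to 0.799), 0.86 (0.802 to 0.922) and 0.297 (0.147 to 0.562), so only the siWFDC21P-1 library of set 2, where HEY1 was low in both libraries, was far below its control. The log2 fold changes were -0.93 ± 0.34 for JAG1 (limma adjusted p = 0.29) and -0.92 ± 0.38 for HES1 (adjusted p = 0.346). They were -0.82 ± 0.50 and -0.88 ± 0.57 without set 2. HEY1 had -0.33 ± 0.49 (limma adjusted p = 0.809), a value that turned positive (0.29) with the naming style in place of the set as a term.

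JAG2 and NRARP differed between the sets. JAG2 was at 1.41 (1.31 to 1.51) and 1.54 (1.44 to 1.64) times its control in set 1 and at 0.509 (0.461 to 0.561) in set 2. NRARP was at 2.15 (1.83 to 2.54) and 2.27 (1.94 to 2.68) times in set 1 and at 0.533 (0.467 to 0.607) in set 2. Their log2 fold changes over both sets were -0.06 ± 0.46 and 0.21 ± 0.44, and without set 2 they were 0.50 ± 0.59 and 0.99 ± 0.43 (limma adjusted p = 0.839 and 0.505). Without siNC replicate 1, which leaves set 2 alone for this contrast, NRARP had -0.82. In set 1 alone, a view added after the values had been seen, NOTCH2, JAG2 and NRARP were above the control in both libraries (a pattern met by 39.3% of all tested genes) and JAG1, HES1 and HEY1 below it in both (32.8%). NOTCH1 was at 1.12, 0.845 and 1.06 times its control (0.01 ± 0.29). NOTCH3 was at 0.771 (0.76 to 0.783) times its control in set 2, and in set 1 its few reads gave 0.506 (0.136 to 1.62) and 1.28 (0.519 to 3.26), a difference not detectable at this depth.

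The second comparison took siWFDC21P-2 against siNC replicate 3, the only control in set 3. Again 0 of the 8 genes passed (limma), where 0.0% of all tested genes were called. None had an unadjusted p under 0.05, as 5.2% of all tested genes had, and limma-voom called 0 of 8. The median log2 fold change was -0.49 over the 8 genes and 0.02 over all tested genes. The siWFDC21P-2 libraries differed strongly among themselves: replicate 1 was within 0.779 to 1.24 times its control for 7 of the 8 genes (NRARP was lower), and replicates 2 and 3 lay on the same side of the control for all 8.

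HES1, alone among the target genes HES1, HEY1 and NRARP, lay above the control in all 3 libraries, at 1.24 (0.988 to 1.57), 2.97 (2.44 to 3.63) and 2.81 (2.31 to 3.44) times its level. NOTCH3 did so as well, at 1.12 (1.04 to 1.20), 1.62 (1.52 to 1.73) and 1.36 (1.27 to 1.46) times. This pattern was met by 26.9% of all tested genes. JAG1 was at 0.945 (0.783 to 1.14), 3.0 (2.57 to 3.5) and 2.15 (1.83 to 2.52) times its control, so that replicate 1 showed no difference beyond counting error. The log2 fold changes were 0.97 ± 0.48 for HES1, 0.40 ± 0.25 for NOTCH3 and 0.63 ± 0.42 for JAG1 (limma adjusted p = 0.756 for each).

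NOTCH1, NOTCH2, JAG2 and NRARP lay below the control in all 3 siWFDC21P-2 libraries, a pattern met by 26.0% of all tested genes. NRARP was the lowest of these at 0.574 (0.421 to 0.777), 0.151 (0.0865 to 0.25) and 0.27 (0.177 to 0.4) times the control. JAG2 was at 0.919 (0.82 to 1.03), 0.255 (0.213 to 0.304) and 0.284 (0.24 to 0.335) times, and NOTCH1 at 0.86 (0.753 to 0.983), 0.273 (0.223 to 0.332) and 0.411 (0.346 to 0.486) times. NOTCH2 differed less and more evenly, at 0.779 (0.725 to 0.837), 0.786 (0.731 to 0.844) and 0.834 (0.778 to 0.895) times. HEY1 was level with the control in replicate 1, at 1.07 (0.869 to 1.31) times, and far below it in replicates 2 and 3, at 0.145 (0.0932 to 0.218) and 0.121 (0.0745 to 0.187) times. The log2 fold changes were -1.17 ± 0.55 for NRARP, -1.05 ± 0.61 for HEY1, -0.98 ± 0.57 for JAG2, -0.70 ± 0.36 for NOTCH1 and -0.27 ± 0.20 for NOTCH2 (limma adjusted p = 0.756 for each).

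Leaving out siWFDC21P-2 replicate 1 changed the call for HEY1. Its log2 fold change was then -1.61 ± 0.18 (limma adjusted p = 0.011), and it was called lower in a fit that called 2.61% of all tested genes lower. NOTCH1 had -0.97 ± 0.23 (limma adjusted p = 0.0578) and was not called. In replicates 2 and 3, JAG2, HEY1 and NRARP were each at least 1 log2 unit below the control, as were 2.72% of all tested genes, and HES1 was at least 1 log2 unit above it, as were 3.55%. In the view without replicate 1, added after the values had been seen, NOTCH1, NOTCH2, JAG2, HEY1 and NRARP were below the control in both libraries and NOTCH3, JAG1 and HES1 above it. These patterns were met by 39.1% and 46.2% of all tested genes.

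**Figure D3:**
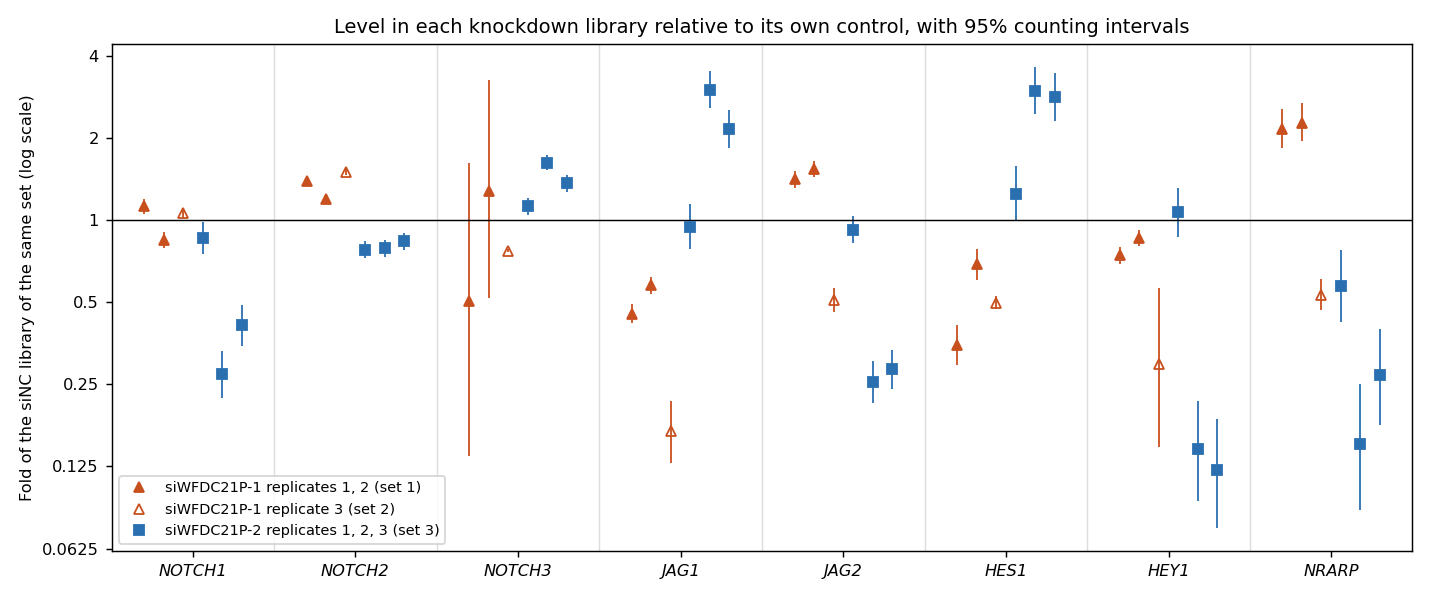
Level of each tested Notch gene in each knockdown library as a multiple of the siNC library of the same set (log scale), with 95% conditional binomial counting intervals; open triangles mark the library compared with the one labelled siNC replicate 2. NOTCH2 lies above 1 in all siWFDC21P-1 libraries and below 1 in all siWFDC21P-2 libraries, and HES1 does the reverse. Of all tested genes, 4.3% met the NOTCH2 pattern and 3.77% the HES1 pattern. The siRNAs were used in different sets.

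The third comparison asked whether the genes differ between the knockdowns together and the controls, and whether the 2 siRNAs differ from each other. With both siRNAs pooled, 0 of the 8 genes passed (limma; 0.00768% of all tested genes were called), 0 had an unadjusted p under 0.05, as had 14.4% of all tested genes, and limma-voom called 0. None of the 8 lay on the same side of its control in all 6 knockdown libraries, whereas 10.8% of all tested genes were higher in all 6 and 7.92% lower in all 6. NOTCH2 was higher in all siWFDC21P-1 and lower in all siWFDC21P-2 libraries, as were 4.3% of all tested genes. HES1 was lower in all siWFDC21P-1 and higher in all siWFDC21P-2 libraries, as were 3.77%.

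The difference between the changes with siWFDC21P-1 and with siWFDC21P-2 was tested in the same model, and 0 of the 8 genes passed (limma; 0.0% of all tested genes were called). An unadjusted p under 0.05 was found for NOTCH2, JAG1 and HES1, and for 5.4% of all tested genes, and limma-voom called 0 of 8. The difference in log2 change was -1.89 ± 0.61 for HES1, -1.56 ± 0.54 for JAG1 and 0.71 ± 0.25 for NOTCH2 (limma adjusted p = 0.83 for each). JAG1 passed without siWFDC21P-2 replicate 1, at -1.90 ± 0.31 (limma adjusted p = 0.0482), in a fit that called 1.4% of all tested genes, and HES1 was then at -2.25 ± 0.40 (adjusted p = 0.0604). For the other 5 genes the difference was 1.38 ± 0.70 (NRARP), 0.92 ± 0.73 (JAG2), 0.72 ± 0.46 (NOTCH1), 0.71 ± 0.78 (HEY1) and -0.56 ± 0.32 (NOTCH3). The siRNAs were used in different sets, so a difference between siRNAs and a difference between sets cannot be told apart.

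The wider pathway was followed through a list of 76 further genes, of which 63 were tested. Genes of this list are named from the 4 most abundant of each class, though not all of those are named. Exceptions are AAK1, ADAM10, APH1B, HES6, HES7, LFNG, MAML2, PSENEN and SOX9, which were picked out by their values. RBPJ and NOTCH2NLA are also outside this rule and are named for reasons given with them. None of the 63 was called in any of the contrasts (limma). With siWFDC21P-1, 13 had an unadjusted p under 0.05 (5 higher and 8 lower, beside 13.8% of all tested genes). With siWFDC21P-2, 2 had one (HDAC1 higher and HES7 lower, beside 5.2% of all tested genes), and limma-voom called 0 for both siRNAs. The median log2 fold change was 0.01 and 0.02, beside 0.03 and 0.02 over all tested genes. Without siWFDC21P-2 replicate 1, APH1B was called higher with siWFDC21P-1 (0.93% of all tested genes were). MFAP2, HDAC1 and SOX9 were then called higher with siWFDC21P-2 (4.32%), and HES7 was called lower (2.61%). HDAC1 was then also called higher with both siRNAs pooled, as were 164 of the 13014 genes tested. SOX9 was then called for the difference between the siRNAs (1.4%). With all libraries, 13 of the 63 had an unadjusted p under 0.05 with both siRNAs pooled (14.4% of all tested genes). For the difference between the siRNAs 4 had one (5.4%). In all 6 knockdown libraries, 8 of the 63 lay above their controls (10.8% of all tested genes) and 6 below (7.92%).

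Of the 9 genes on the receptor protease list, 8 had a median of at least 1 FPKM in every set. The exception was the gamma-secretase subunit PSENEN, at 0.251 to 1.14 FPKM, which averaged less than 1 and was not tested. The receptor protease list had 5 of 8 tested genes at an unadjusted p under 0.05 with siWFDC21P-1, 2 higher and 3 lower, where 13.8% of all tested genes had one. ADAM10, the main protease of the ligand-dependent cut, had 7.90 and 7.34 FPKM in siNC replicate 1 and the library labelled siNC replicate 2, against 3.82 and 5.09 in set 1 and 4.48 in set 2, below the control in all 3 siWFDC21P-1 libraries (-0.67 ± 0.20, limma adjusted p = 0.224). With siWFDC21P-2 it had 6.18, 8.76 and 7.48 FPKM against 6.44, below the control in replicate 1 and above it in the other 2 (0.18 ± 0.25). ADAM17, a related protease that can also cut the receptor, was at 14.3, 14.8 and 18.7 FPKM in siNC replicates 1, 2 and 3, at 4.27, 8.32 and 8.18 with siWFDC21P-1 and at 17.8, 7.20 and 9.33 with siWFDC21P-2. It lay below its control in all 6 knockdown libraries, as did 7.92% of all tested genes (log2 fold changes -0.98 ± 0.39 and -0.76 ± 0.48, limma adjusted p = 0.328 and 0.756). In siWFDC21P-2 replicate 1 ADAM17 was close to its control, at 17.8 against 18.7 FPKM. Whole reads were not recovered for ADAM17, so no counting interval can be given. The gamma-secretase subunits NCSTN and APH1A lay above their controls in all 6, with NCSTN at 35.5, 16.8 and 40.5 FPKM in the siNC libraries against 40.4, 37.7 and 28.6 and against 49.3, 59.7 and 55.2. For APH1A, siWFDC21P-2 replicates 2 and 3 showed no difference beyond counting error, at 1.05 (0.983 to 1.12) and 1.01 (0.948 to 1.08) times the control. FURIN, which cleaves the receptor precursor, had 80.4 FPKM in siNC replicate 1 against 44.2 and 36.0 FPKM in the siWFDC21P-1 libraries of set 1. Elsewhere FURIN was at 6.63 to 11.9 FPKM.

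Among the enzymes that glycosylate the receptor, 1 of 7 tested genes had an unadjusted p under 0.05 with siWFDC21P-1 (13.8% of all tested genes). That gene was LFNG, a fringe that shifts receptors towards Delta-like ligands. It was at 4.96 and 3.81 FPKM in siNC replicate 1 and the library labelled siNC replicate 2, at 0.9, 0.799 and 1.77 in the siWFDC21P-1 libraries, and at or below 0.0336 in set 3. Its log2 fold change was -1.31 ± 0.21 with siWFDC21P-1 (limma adjusted p = 0.0893), the smallest p of the 63 genes in that contrast. POFUT1, the O-fucosyltransferase that receptors need to bind ligand, was at 12.5, 10.4 and 26.6 FPKM in the siNC libraries, at 20.1, 19.5 and 11.4 with siWFDC21P-1 and at 35.6, 30.0 and 30.8 with siWFDC21P-2, above its control in all 6.

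In the trafficking list 1 of 13 tested genes, the kinase gene AAK1, had an unadjusted p under 0.05 with siWFDC21P-1 (lower) and 0 had one with siWFDC21P-2. Over all tested genes the shares were 13.8% with siWFDC21P-1 and 5.2% with siWFDC21P-2. MIB1, the ubiquitin ligase that drives ligand endocytosis, lay below its control in all 6 knockdown libraries. In siWFDC21P-2 replicate 1 MIB1 showed no difference beyond counting error, at 0.992 (0.934 to 1.05) times its control. It was at 7.33, 12.9 and 12.9 FPKM in the siNC libraries, at 2.57, 4.77 and 5.18 with siWFDC21P-1 and at 12.8, 3.69 and 6.64 with siWFDC21P-2 (log2 fold changes -1.0 ± 0.44 and -0.81 ± 0.54, limma adjusted p = 0.368 and 0.756). Of the 5 tested other ligands, 0 had an unadjusted p under 0.05 with either siRNA. MFAP2, a microfibril protein that can bind Notch, had 37.3 FPKM in siNC replicate 3 against 38.6, 77.3 and 80.2 FPKM in the siWFDC21P-2 libraries, and at most 0.0732 FPKM in sets 1 and 2. DLL3, a divergent Delta-like ligand outside the shares given above, had 1.24, 1.43 and 1.56 FPKM in set 1 (control first), 1.82 and 1.03 FPKM in set 2, and 2.53, 2.26, 0.913 and 1.44 FPKM in set 3. It exceeded JAG1 in both libraries of set 2 and in siNC replicate 3 and siWFDC21P-2 replicate 1. DNER, a neuronal Notch ligand also outside the shares given above, ranged from 15.8 to 18.7 FPKM in set 1. It ranged from 3.68 to 4.51 FPKM in set 3 and had 0.216 and 0.579 FPKM in set 2. In each library of set 1 DNER exceeded the sum of JAG1, JAG2 and DLL1, which was 14.5 to 16.4 FPKM there.

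Of the 9 genes of the nuclear complex, 1 had an unadjusted p under 0.05 with siWFDC21P-1 (MAML2, higher) and 0 with siWFDC21P-2. Over all tested genes the shares were 13.8% with siWFDC21P-1 and 5.2% with siWFDC21P-2. The coactivator genes SNW1 and EP300 were at 19.9 to 28.6 and 8.87 to 17.6 FPKM over all libraries. RBPJ, given because all receptors depend on it and outside the rule for naming genes, was at 7.60, 9.48 and 7.98 FPKM in the siNC libraries, at 8.52, 3.65 and 15.4 with siWFDC21P-1 and at 8.06, 9.24 and 7.30 with siWFDC21P-2. Its log2 fold changes were 0.06 ± 0.35 and 0.03 ± 0.43. Of 14 corepressor genes, 4 had an unadjusted p under 0.05 with siWFDC21P-1 (2 higher, 2 lower) and 1 with siWFDC21P-2. The shares over all tested genes were the same 13.8% and 5.2%. HDAC1, a histone deacetylase of the RBPJ corepressor complex and of many others, was at 31.6, 48.2 and 29 FPKM in the siNC libraries, at 57.6, 48.6 and 78.8 with siWFDC21P-1 and at 52.4, 70.6 and 70.2 with siWFDC21P-2. It lay above its control in all 6, and its log2 fold changes were 0.71 ± 0.19 and 1.11 ± 0.24 (limma adjusted p = 0.2 and 0.756). Without siWFDC21P-2 replicate 1 the latter was 1.25 ± 0.17 (adjusted p = 0.0165).

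Over all tested genes, 13.8% (siWFDC21P-1) and 5.2% (siWFDC21P-2) had an unadjusted p under 0.05. Among the 7 other tested genes listed as targets, 1 had one with each siRNA. With siWFDC21P-1 this was CCND1 (cyclin D1), with 88.8 FPKM in siNC replicate 1 against 52.7 and 58.5 FPKM in set 1, and with 69.3 against 15.4 FPKM in set 2 (-1.28 ± 0.36, limma adjusted p = 0.21). With siWFDC21P-2 it was HES7, a repressor of the somite clock, with 7.72 FPKM in siNC replicate 3 against 2.89, 0.128 and 0.467 FPKM (-2.23 ± 0.73, limma adjusted p = 0.756). HES4 had 58.0 FPKM in siNC replicate 3 against 45.6, 16.0 and 24.7 FPKM with siWFDC21P-2, and HES6 had 17.2 against 15.3, 3.58 and 5.06 FPKM. HES4, HES6 and HES7 thus lay below the control in all 3 libraries, together with NRARP, while HES1 and ID1 lay above it. These patterns were met by 26.0% and 26.9% of all tested genes, and HES6 and HES7 were picked out by their values. In replicate 1 ID1 showed no difference beyond counting error, at 1.02 (0.945 to 1.11) times the control. ID1, an inhibitor of helix-loop-helix factors and the most abundant of these targets, had 57.3 FPKM in siNC replicate 3 against 58.7, 212 and 111 FPKM. Its siWFDC21P-1 libraries had 198 and 226 against 181 FPKM in set 1 and 1.79 against 18.5 in set 2. SOX9, a transcription factor, had 3.73 FPKM in siNC replicate 3 against 3.33, 13.5 and 13.8 FPKM. MYC had 94.5 FPKM in siNC replicate 3 against 101, 43.6 and 56.5 FPKM with siWFDC21P-2, with 73.4 in the control of set 1 against 224 and 186, but 71.1 in that of set 2 against 56.3.

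**Figure D4:**
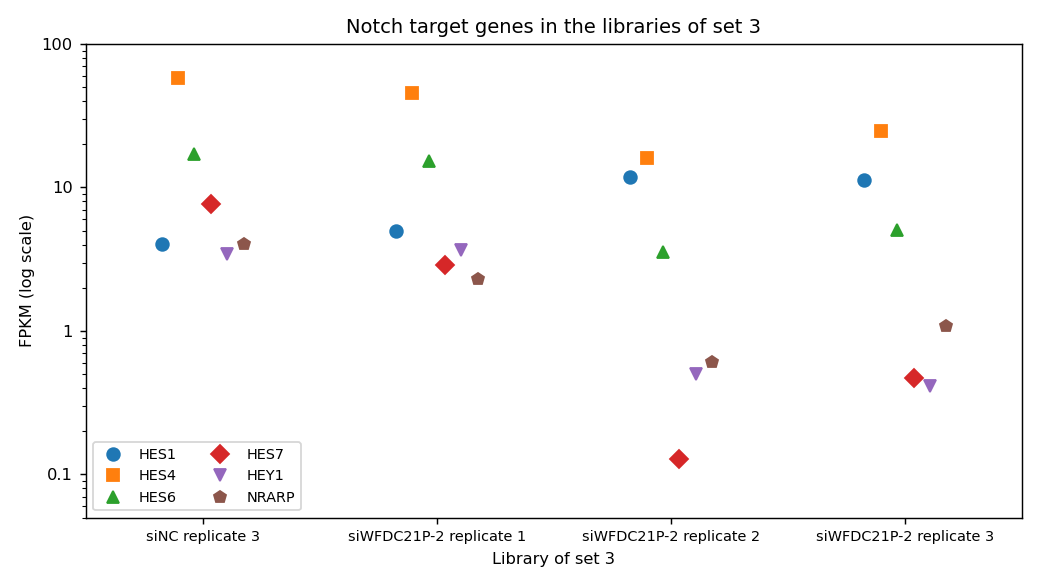
FPKM (log scale) of 6 genes listed as Notch targets (HES1, HES4, HES6, HES7, HEY1 and NRARP) in the 4 libraries of set 3. Whether each of them responds to Notch in these cells was not tested. In siWFDC21P-2 replicates 2 and 3 HES1 lies above its siNC replicate 3 level of 4.02 FPKM, and the other 5 genes shown lie below theirs. Of the tested genes listed as targets but not shown, SOX9 and ID1 lay above the control in both libraries. MYC lay below it in both, and CCND1 below it in replicate 2 and above it in replicate 3. Of all tested genes, 46.2% lay above the control in both libraries and 39.1% below it. HES6 and HES7 were picked out by their values.

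Genes with the most similar pattern were found by the root mean square difference of log2(FPKM + 1), centred on each gene's mean, over the 9 libraries. For NOTCH3 they were IGFBP4 (0.486), SFRP1 (0.502) and SOX9 (0.547), where the median over tested genes was 2.66. SOX9 was listed at 0 in all libraries of set 1, at 73.7 and 81.5 FPKM in set 2 and at 3.73, 3.33, 13.5 and 13.8 FPKM in set 3. For JAG1 they were SLFN12 (0.249), EFR3B (0.309) and MCOLN1 (0.316), with a median of 0.936. MCOLN1, a lysosomal channel gene, was at 22.1, 9.19 and 8.77 FPKM in set 1, 4.90 and 3.87 in set 2, and 5.51, 4.26, 9.06 and 9.66 in set 3. For HES1 they were ISLR (0.358), WT1 (0.389) and MANSC1 (0.398), with a median of 1.27. The libraries of a set share a background, so the 9 libraries are not independent points for this likeness.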

How the data were processed

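Gene-level FPKM values of 9 libraries were used as the authors deposited them. The submitters' processing notes list HTSeq 0.6.0, Bowtie2 2.2.3, HISAT2 2.1.0 and the build hg38; which step used which aligner and the strand setting are not given in the sources used here. The Notch genes and the gene lists were chosen with earlier results of these data known, and so were the expression sets and the tests.

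The values were multiples of 1 read (within 0.02 reads) for 95.2 to 96.1% of values under 50 reads, which gave whole reads for 25653 of 26636 genes (96.3%, all 10 Notch genes included) with GENCODE 29 exon lengths or the whole length that fits all libraries. For JAG1, NOTCH1 and NOTCH2 the length was of the latter kind. Counting intervals (95%) are exact Poisson intervals for levels and exact conditional binomial intervals for ratios of reads. No libraries of a set agreed within sampling noise (lowest chi-square per gene 19.68).

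For genes that averaged 1 FPKM or more, limma 3.58.1 (R 4.3.3) was fitted with trended variances to log2(FPKM + 1) over all 9 libraries, with expression set and group as terms and Benjamini-Hochberg adjustment over 13014 genes. Fold changes on this scale understate those of low genes. The sets came from average-linkage clustering on 1 minus Pearson r, split at 0.15. For siWFDC21P-2 the contrast rests on 1 control, and the spread comes from all libraries. The model was tested on simulated data. Alternatives were the naming style or no term in place of the set, a replicate block, pseudocounts of 0.1 and 0.5, no filter or at least 5 FPKM, quantile normalization, limma-voom on recovered reads, and each library left out. All 10 Notch genes are named. Of each class of the pathway list, up to 4 genes with the highest mean FPKM may be named. Others are named as chosen after their values were seen, or for a reason given with them.

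Same-numbered libraries of different groups did not consistently deviate together from their group means (r from -0.683 to 0.667 over 9 pairs, 0.667 for replicate 1 of siNC and siWFDC21P-1). These deviations include the differences between expression sets, so they cannot show whether same-numbered libraries belong together. The replicate numbers were not used as pairs in the main model.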

Additional observations from a re-analysis of the deposited data

Results flagged for a closer look

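NOTCH2 and HES1 lay on opposite sides of their controls with the 2 siRNAs. For NOTCH2 every siWFDC21P-1 library lay above and every siWFDC21P-2 library below the siNC library of its set, and the difference in log2 change was 0.71. For HES1 every siWFDC21P-1 library lay below and every siWFDC21P-2 library above, and the difference was -1.89. Of all tested genes, 4.3% met the NOTCH2 pattern and 3.77% the HES1 pattern. The interaction was tested in limma and did not pass for either gene (adjusted p = 0.83 for both). Since the siRNAs were used in different sets, a difference between siRNAs and a difference between sets cannot be told apart. The smallest siWFDC21P-2 difference for HES1, in replicate 1, had a counting interval that includes 1 (0.988 to 1.57). The set 2 part of the siWFDC21P-1 values rests on the library labelled siNC replicate 2. Without it the differences were 0.62 for NOTCH2 and -1.85 for HES1.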

How the results depend on the processing

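The counts of called genes depended on the processing. For siWFDC21P-1 the 3 called genes became 0 with the naming style as the term, with the group alone, with a replicate block or with no filter, 26 with a minimum mean of 5 FPKM, 16 with quantile normalization and 26 with limma-voom. Leaving out 1 library gave 0 to 153. For siWFDC21P-2 the count of 0 became 17 with no filter and 0 to 902 with 1 library left out. For both siRNAs pooled the count of 1 became 0 with the naming style, the group alone, the replicate block or no filter, 2 with a pseudocount of 0.1, and 0 to 204 with 1 library left out. For the difference between the siRNAs the count of 0 became 7 with no filter and 0 to 182 with 1 library left out. The upper ends came from leaving out siWFDC21P-2 replicate 1. The cause of these shifts was not tested. The number of Notch genes higher in every siWFDC21P-1 library went from 1 to 3 without the libraries of set 2. Fewer libraries then had to meet the rule, and the share of all tested genes meeting it went from 27.9% to 39.3%.

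Over 24 fold changes of the 8 Notch genes, 413 alternatives gave the same direction and call in 395 cases, a gained call in 2 and a reversed sign in 16. The gained calls, both without siWFDC21P-2 replicate 1, were HEY1 with siWFDC21P-2 (-1.61) and the JAG1 difference (-1.90). Reversed with siWFDC21P-1 were NOTCH1 (-0.20 with the naming style, -0.01 with quantile normalization, -0.07 to 0.11 with 1 library left out), JAG2 (0.10 with the naming style, 0.18 with the group alone, 0.37 with the replicate block, -0.80 to 0.50), HEY1 (0.29, 0.38 and 0.09 under the same 3 settings) and NRARP (-0.82 to 0.99 with 1 library left out). With the group alone HES1 had -0.58 for siWFDC21P-2 and 0.00 for the difference. The replicate block called 0 Notch genes. JAG1 has no value at a minimum of 5 FPKM, and without siNC replicate 3 neither siWFDC21P-2 nor the difference could be fitted. Depth limits NOTCH4 and DLL1, and NOTCH3 in set 1.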
